A study of Mus musculus with 8 samples.

Results

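Cd36 encodes a scavenger receptor and fatty acid transporter, and it is described here through 1 locus, XLOC_021038, of the 31020 loci in the count table. The locus lies on the minus strand of chromosome 5 in mouse build mm9, chr5:17287508-17394777. The locus was chosen with earlier results of these data known. Its members were taken by identifier: all 9 isoforms that the authors' merged annotation gives to the locus, of 89208 transcripts with expression values. They fall into 4 start-site groups of 49855 in the annotation, each group being the isoforms that begin at one transcription start. Of the 9 isoforms, 5 are reference transcripts and 4 were assembled from the reads, and the 5 reference isoforms share 1 coding-sequence identifier.

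The libraries came from bone marrow-derived macrophages of C57BL/6 mice, which are macrophages grown in culture from marrow precursors. The study has 4 libraries of untreated cells and 4 of cells given interleukin-4 (IL-4), which T helper cells of the type 2 response secrete. The strain label is the same for both groups, no genotype or other agent is named, and no source used here gives the dose and duration of IL-4 or the age of the mice. The comparison asks how RNA abundance differs after IL-4; the design text calls the 4 samples of a group biological replicates, with no word on whether they came from separate mice, and the p-values speak only of the spread among these libraries.

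CD36 sits in the plasma membrane and binds oxidized low-density lipoprotein, long-chain fatty acids, thrombospondin and dying cells. In macrophages its uptake of oxidized lipoprotein is a known step towards foam cells, and the fatty acids it brings in can be burned or stored. Its gene is a textbook target of the nuclear receptor PPARγ, which IL-4 engages through the transcription factor STAT6, and it is known to be read from several alternative promoters.

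The identity of the locus was checked by length. The span of 107270 nt equals that of Cd36 in the RefSeq annotation of build GRCm38.p6, and the distance from the 3′ end to the start nearest to it, 54206 nt, is the same in both. Within 500000 nt on each side, loci that are or hold a transcript with the span of Speer4f1, Sema3c (1 nt off), Gnat3 and Gnai1 stand in the RefSeq order. No other locus overlaps the span (0 found), and the exons together cover 4099 nt.

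Expression of the locus is read from 4 annotated starts. The start nearest the 3′ end, called the proximal start here (TSS34143), is at position 17341714 and has 2 reference isoforms with a first exon of 279 nt. A group called the upstream start (TSS34144) begins 13896 to 13909 nt further upstream, between positions 17355610 and 17355623, and has 5 isoforms, 2 of them reference. The second upstream start (TSS34145), 14061 nt upstream of the proximal one at 17355775, has 1 assembled isoform. Its first exon of 301 nt ends at the same base as the first exons of 136 and 149 nt of the upstream start. The far start (TSS34146) lies 53063 nt upstream at 17394777, with 1 reference isoform.

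**Figure D1:**
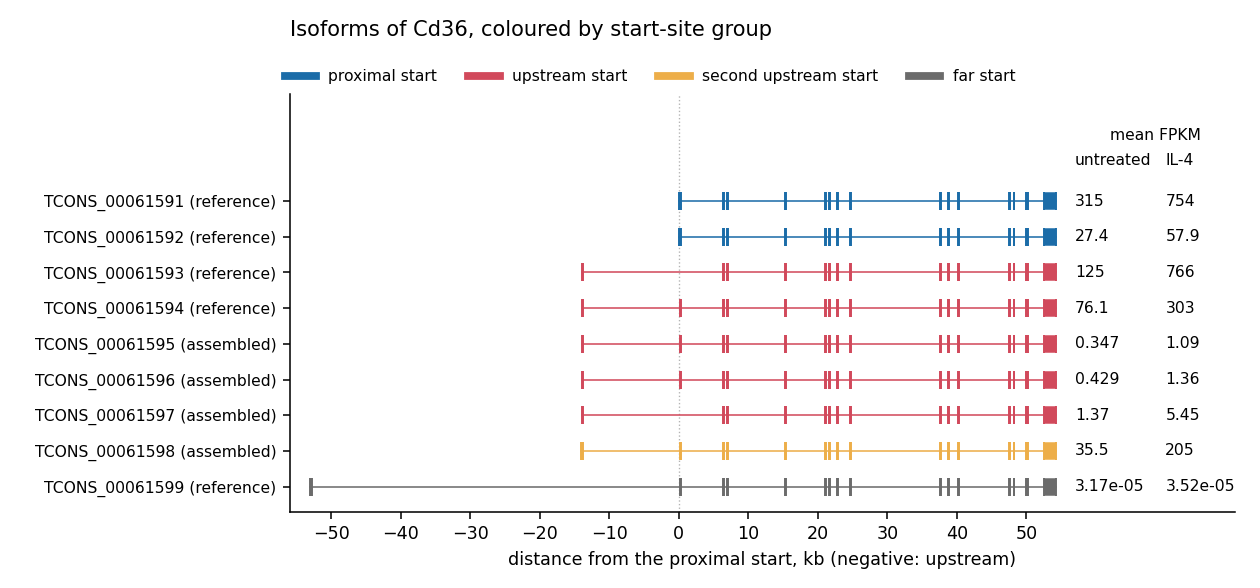
Exons (blocks) and introns (lines) of the 9 Cd36 isoforms, with distance from the proximal start in kb on the horizontal axis (upstream is negative) and the mean FPKM of the 4 untreated and 4 IL-4 libraries at the right. All isoforms share the exons to the right of 5 kb apart from small differences at exon ends, so they differ mainly in where they begin, and the far-start isoform has means of 3.17e-05 and 3.52e-05 FPKM.

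Isoforms also differ inside the shared part. A cassette exon of 54 nt (57 nt in 1 assembled isoform) is spliced in or skipped after the upstream first exons. These 54 nt are also the 3′ end of the proximal first exon. A later exon begins at either of 2 acceptor sites and is then 210 or 207 nt long. The proximal isoforms TCONS_00061591 and TCONS_00061592 have the longer and the shorter form. At the upstream start, TCONS_00061593 skips the cassette exon and has the longer form, and TCONS_00061594 includes the cassette and has the shorter form.

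The promoter of the proximal start is shown because it is the only Cd36 promoter in the RefSeq promoter set used here. No sequence was available for the upstream and far starts. The proximal start gave the larger part of Cd36 RNA in untreated cells and the smaller part with IL-4. The sequence is the RefSeq one for Cd36, 250 bases before the start and the first 30 transcribed bases, at chr5:17835867-17836146 of GRCm38.p6, minus strand. Capitals mark a 16-nt element that occurs 2 times back to back.
Cd36 proximal promoter: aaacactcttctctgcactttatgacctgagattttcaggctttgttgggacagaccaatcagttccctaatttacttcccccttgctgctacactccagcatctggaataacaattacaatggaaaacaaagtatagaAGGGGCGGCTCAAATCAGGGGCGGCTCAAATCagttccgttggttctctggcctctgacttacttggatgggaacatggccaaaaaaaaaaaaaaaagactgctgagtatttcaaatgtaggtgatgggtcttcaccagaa

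Counting the first transcribed base as +1 and the base before it as -1, the copies of the element begin at -111 and -95. A direct repeat of at least 16 nt was found in 1.56% of 32851 RefSeq mouse promoter windows of 300 nt. Such a repeat was 2 exact copies without overlap, at any spacing, that held A, C, G and T. The GC box GGGCGG, the letters bound by Sp1-type factors, had 2 matches, both inside the repeat (35.7% of windows have a match). CCAAT had 1 match, beginning at -195 (37.4%). The nuclear receptor motif AGGTCA had 1 match, on the opposite strand from -228 to -223 (16.3%), and the direct repeat of it with 1 base between, AGGTCANAGGTCA, the form known for PPARγ with its partner RXR, had 0 (0.0396%). The STAT6 letters TTCNNNNGAA had 1 match, from 21 to 30 after the start (6.95%), while TTCNNNGAA had 0 (8.3%) and TATAAA had 0 (13.6%). The search covered the whole window of 300 nt, and G and C made up 43% of it, against a median of 52.67% over all windows. Both strands were searched, and a match describes letters, not binding. The windows of the upstream and far starts could not be analysed, as their sequence was not available.

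Counts at the Cd36 locus were 50305, 106044, 89617 and 73796 in untreated replicates 1 to 4 and 270603, 315355, 298391 and 282978 with IL-4. Scaled to the total count of each library (CPM), the untreated levels were 2029, 3974, 3884 and 3080 CPM, and those with IL-4 were 10472, 11350, 12449 and 10461 CPM. Every IL-4 library was above every untreated one, and the lowest IL-4 level was 2.63 times the highest untreated level. The locus took between 0.203% and 0.397% of all counts in untreated libraries and between 1.05% and 1.25% with IL-4.

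The mean rose from 3242 ± 903 to 11183 ± 941 CPM (SD, n = 4). With edgeR's own scaling of the libraries (TMM factors), which differs from that of the CPM, the log2 change was 1.90 ± 0.18 (SE). That is 3.73-fold (adjusted p = 6.017e-06 in the edgeR quasi-likelihood test). Of 13761 loci tested, 25.6% rose in the same test, so the rise as such is shared with many loci. A log2 fold change of at least that of Cd36 was reached by 575 loci, or 4.18%. Among the 40 loci with a mean CPM of at least 0.25 times that of Cd36, itself included, 2 changed upward by at least as much, and 1 of these is Cd36. The median log2 fold change over all loci was -0.02.

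The spread was wider among the untreated libraries, a difference that was not tested. The highest untreated CPM was 1.96 times the lowest, against 1.19 times with IL-4, and the coefficient of variation was 27.9% against 8.42%. Untreated replicate 1 was the lowest at 2029 CPM, and its IL-4 partner of the same number had 5.16 times that level. The other pairs gave ratios of 2.86, 3.20 and 3.40 for replicates 2, 3 and 4. In bulk RNA of this kind, more RNA per cell and more cells of a kind that expresses the gene cannot be told apart.

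**Figure D2:**
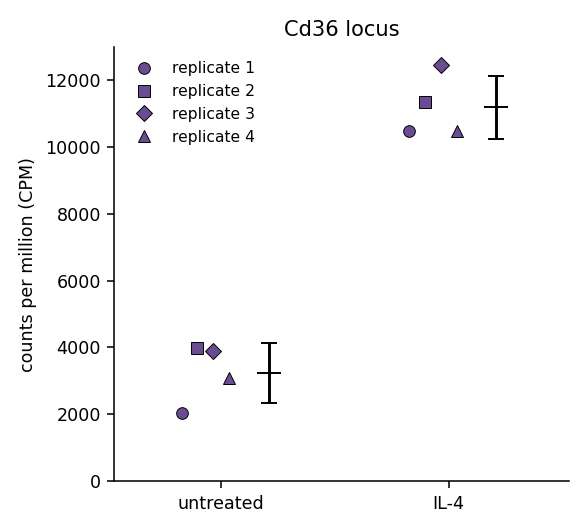
CPM of the Cd36 locus (counts scaled to the library's total, vertical axis, from 0) in the 4 untreated and 4 IL-4 libraries, with the mean and SD of each group beside the points. Untreated libraries lie between 2029 and 3974 CPM and IL-4 libraries between 10461 and 12449 CPM, with no overlap.

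Depth was alike across libraries, with total counts from 23071022 to 27783417. Both replicate 4 libraries stood apart from the rest in counts on chromosome Y, 5808 untreated and 5525 with IL-4, against 0 to 7 in the other libraries. The 2 replicate 4 libraries are 1 in each group. Without both of them every call on Cd36 made with edgeR or limma kept its direction and its side of the threshold.

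Output of the starts was taken from the authors' FPKM, which scale fragments to transcript length and library size, summed over the isoforms of a start. Summed over the whole locus, FPKM went from 581 ± 156 to 2094 ± 174 (SD, n = 4). Ordered by summed FPKM, Cd36 moved from rank 126 among loci in untreated cells to rank 35 with IL-4. By mean CPM, which is not scaled to length, it stood at rank 21 in untreated cells and rank 8 with IL-4. In each library the sum divided by the CPM of the locus was between 0.177 and 0.183 without IL-4 and between 0.185 and 0.191 with it, so counts and FPKM gave nearly the same fold. The division among isoforms is an estimate made by the authors' software from exons that isoforms mostly share, and the starts are those of the annotation and assembly, with no assay of 5′ ends.

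The proximal start gave 206, 429, 422 and 313 FPKM in untreated replicates 1 to 4. With IL-4 it gave 769, 766, 856 and 856 FPKM. The groups did not overlap, and untreated replicate 1 was again the lowest. The mean went from 343 ± 105 to 812 ± 51.1 FPKM (SD, n = 4), a log2 change of 1.30 ± 0.21 (SE), or 2.46-fold (adjusted p = 0.00109 in the limma test).

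The upstream start gave 144, 233, 235 and 200 FPKM in untreated libraries. With IL-4 it gave 972, 1127, 1245 and 963 FPKM. In each untreated library this start was below the proximal one, and in each IL-4 library it was above it. The rise was from 203 ± 42.2 to 1077 ± 135 FPKM (SD, n = 4), a log2 change of 2.42 ± 0.16 (SE), or 5.37-fold (adjusted p = 5.103e-06 in the limma test).

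The second upstream start gave 20.1, 41.5, 38.1 and 42.3 FPKM in untreated libraries and 197, 213, 232 and 179 FPKM with IL-4. Its level was the lowest of the 3 starts in every library, and its groups did not overlap. The log2 change was 2.58 ± 0.22 (SE), or 5.98-fold (adjusted p = 2.45e-05 in the limma test). These 3 of the 4 start-site groups passed the filter on low values and rose, beside 23.4% of 13999 groups tested over all loci.

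The far start was listed at under 0.0001 FPKM in every library, its highest value being 3.82e-05 FPKM. It did not pass the filter and was not tested, and no fold is given at that level.

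**Figure D3:**
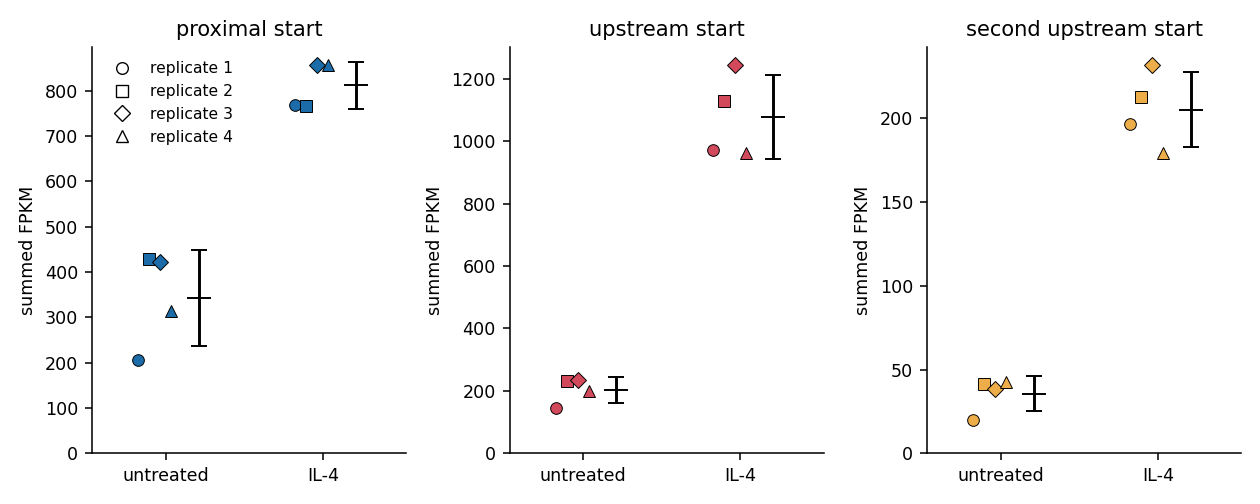
Summed FPKM (vertical axes, each from 0 and each with its own scale) of the proximal, upstream and second upstream start of Cd36 in the 4 untreated and 4 IL-4 libraries, with mean and SD beside the points. All 3 starts are higher with IL-4, by 2.46-fold, 5.37-fold and 5.98-fold on the log2(FPKM + 0.1) scale.

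Whether the starts moved apart was tested with the log2 ratio of each start to the rest of its locus, over 5803 start-site groups at 2437 loci. For the proximal start the ratio was 0.32, 0.65, 0.63 and 0.37 in untreated libraries and -0.60, -0.81, -0.79 and -0.42 with IL-4. Its sign was positive in every untreated library and negative in every IL-4 library. The difference was -1.15 (SE 0.13, limma, adjusted p = 0.000642). The upstream start moved the other way by 0.94 (SE 0.12, limma, adjusted p = 0.00133). For the second upstream start the difference was 0.75 (SE 0.14, limma, adjusted p = 0.00742).

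Over all loci the ratio changed at 19.1% of the groups tested, against 3 of the 3 Cd36 groups tested. These 3 ratios are parts of one whole and do not vary freely. A difference at least as large in size as that of the proximal start was measured at 9.22% of groups. The corresponding shares were 12.6% for the upstream and 17.3% for the second upstream start.

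As a share of the summed FPKM, the proximal start made up 55.6%, 61.0%, 60.7% and 56.4% in untreated replicates 1 to 4 and 39.7%, 36.4%, 36.7% and 42.8% with IL-4. The mean share went from 58.4% ± 2.84 to 38.9% ± 3.02 (SD, n = 4). The upstream start went from 35.5% ± 2.65 to 51.3% ± 2.60, and the second upstream start from 6.11% ± 1.02 to 9.80% ± 0.553 (SD, n = 4). For each of the 3 shares the groups did not overlap, and the two-sided exact permutation test gave p = 0.02857, the smallest that 4 against 4 allows (0.02857 also after adjustment over the 3). Across pairs of equal replicate number the proximal share was higher with IL-4 in 0 of 4. The threshold was not reached within the 4 pairs (exact p = 0.125) or without both replicate 4 libraries (exact p = 0.1), each the smallest p its design allows.

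**Figure D4:**
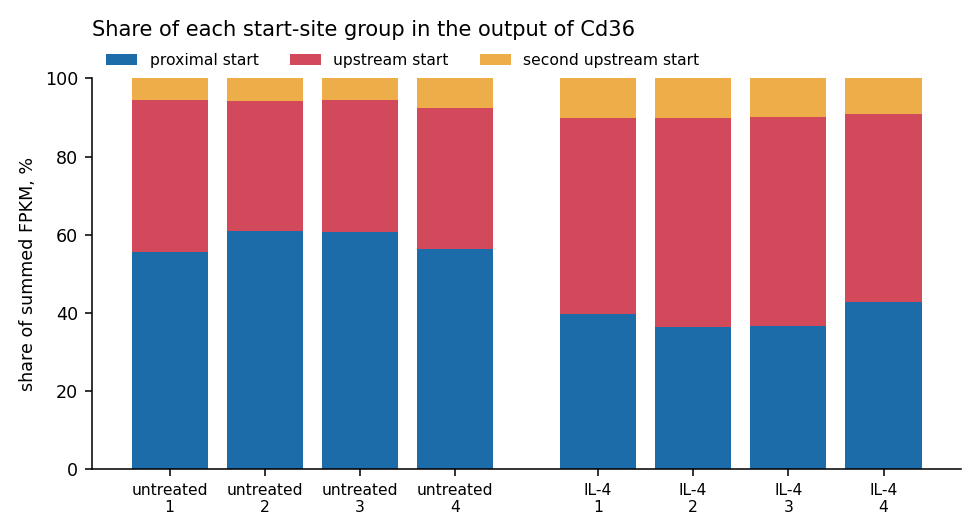
Share of the proximal, upstream and second upstream start in the summed FPKM of Cd36 (stacked bars, vertical axis in percent from 0) for each of the 8 libraries. The proximal share is between 55.6% and 61.0% in untreated libraries and between 36.4% and 42.8% with IL-4.

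In absolute terms both parts grew. Summed FPKM gained 1513, of which 469 came at the proximal start and 1044 at the upstream and second upstream starts together, or 69.0% of the gain. The latter 2 groups taken as 1 had 165, 274, 273 and 242 FPKM in untreated libraries and 1169, 1340, 1477 and 1143 FPKM with IL-4. The proximal start gave 1.41 ± 0.165 times their output in untreated cells and 0.639 ± 0.0829 times with IL-4 (SD, n = 4). Joined in this way, which was decided with the values in view, their log2 fold change was 2.45 (limma, adjusted p = 6.103e-06).

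In every untreated library the most abundant isoform was TCONS_00061591 from the proximal start, at 191, 395, 390 and 285 FPKM. With IL-4 it reached 714, 712, 794 and 795 FPKM, a log2 change of 1.31 ± 0.22 (SE, adjusted p = 0.00149 in limma). TCONS_00061593 from the upstream start had 88.2, 143, 137 and 131 FPKM in untreated cells. It rose to 695, 832, 889 and 647 FPKM with IL-4, a log2 change of 2.63 ± 0.17 (SE, adjusted p = 7.992e-06 in limma). Their means with IL-4, 754 ± 47.3 and 766 ± 113 FPKM (SD, n = 4), lie within 1 SD of each other. With IL-4 the proximal isoform was the higher in replicates 1 and 4 and the upstream one in replicates 2 and 3.

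TCONS_00061594, which joins the cassette exon to the upstream first exon, went from 54.6, 87.9, 94.8 and 67.1 FPKM to 271, 288, 347 and 308 FPKM. Its log2 change was 2.02 ± 0.17 (SE, adjusted p = 3.453e-05 in limma). The shorter-exon form of the proximal start, TCONS_00061592, went from 27.4 ± 8.52 to 57.9 ± 3.83 FPKM (SD, n = 4), with a log2 change of 1.14 ± 0.23 (SE, adjusted p = 0.00452 in limma). TCONS_00061598 is the only isoform of the second upstream start and has the values given for that start.

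The remaining assembled isoforms of the upstream start were rare. TCONS_00061597 went from a mean of 1.37 to 5.45 FPKM (limma, adjusted p = 0.000193). TCONS_00061596 had 0.305 to 0.678 FPKM in untreated libraries and 1.12 to 1.53 FPKM with IL-4, so it passed the filter through the IL-4 libraries alone and its call could only be a rise. TCONS_00061595, with at most 1.55 FPKM, and the far-start isoform did not pass. The 5 isoforms above 1 FPKM in all 8 libraries each rose, with log2 fold changes from 1.14 to 2.63, beside 19.8% of 17500 isoforms that rose over all loci.

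**Figure D5:**
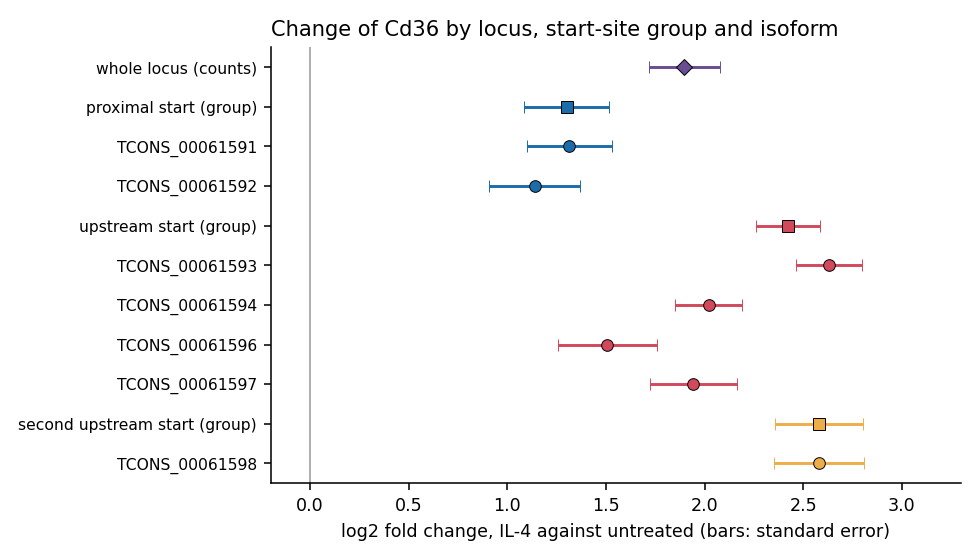
Log2 fold change, IL-4 against untreated, with its standard error, for the Cd36 locus (counts, edgeR), the 3 tested start-site groups (squares) and the 7 tested isoforms (circles, log2(FPKM + 0.1), limma). The proximal group and its isoforms lie at 1.14 to 1.31, and the upstream and second upstream groups at 2.42 and 2.58. Single isoforms of the upstream start lie from 1.51 to 2.63.

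Splice forms also shifted in proportion, in comparisons that were picked with the values in view. Among isoforms of the upstream and second upstream starts, those with the cassette exon made up 45.9%, 47.5%, 49.0% and 45.3% in untreated libraries and 40.2%, 37.5%, 39.4% and 42.9% with IL-4. The longer 210-nt exon was carried by 67.9% ± 3.04 of their FPKM in untreated cells and 76.1% ± 2.31 with IL-4 (SD, n = 4). In the proximal group the longer form made up 92.0% ± 0.751 and 92.9% ± 0.0839 (SD, n = 4). Assembled isoforms, nearly all of it the second upstream start, held 6.49% ± 1.01 and 10.2% ± 0.528 of the summed FPKM. Each of these 4 shares gave p = 0.02857 in a two-sided exact permutation test, the smallest that 4 against 4 allows. After adjustment over 5 shares the permutation p was 0.0357. With the choice made on the values, these p-values are a description, and the 4 shares are not separate results. The assembled share nearly repeats that of the second upstream start. The cassette and 210-nt shares of the upstream starts rest mostly on the same isoforms, TCONS_00061593 and TCONS_00061594.

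The fifth share did not pass. Within the upstream and second upstream starts together, the second one held 14.7% ± 2.19 in untreated cells and 16.0% ± 0.540 with IL-4 (SD, n = 4), and the groups overlapped (exact permutation test, p = 0.314, two-sided). The fold changes of these starts, 5.37 and 5.98, have standard errors that overlap on the log2 scale.

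Around Cd36, the nearest locus past its 3′ end that was tested is an unannotated stretch of 1 exon with no strand, chr5:17279340-17281105, 6403 nt away. It had 1, 5, 10 and 4 counts in untreated libraries and 33, 78, 62 and 46 with IL-4. It passed the filter on counts through the IL-4 libraries, so its call could only be a rise, and its values are given as a description. Per 10000 Cd36 counts it had 0.582 ± 0.385 counts in untreated cells and 1.85 ± 0.544 with IL-4 (SD, n = 4). A second such stretch, chr5:17278342-17279201, had 0 to 2 counts in untreated libraries and 6 to 24 with IL-4 and did not pass the filter.

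On the other side, 73611 nt beyond the far start, lies a locus with a reference transcript of the 57099-nt span of Gnat3, which encodes the taste G protein subunit gustducin. Its counts were 40, 66, 98 and 59 in untreated libraries and 161, 196, 186 and 166 with IL-4, a log2 change of 1.45 ± 0.22 (SE, adjusted p = 0.000252 in edgeR). The Gnat3 reference transcript itself was at or below 0.0793 FPKM in every library, against means of 0.722 and 1.93 FPKM over all transcripts of that locus. An assembled locus on the opposite strand inside its span had a log2 change of 1.57 ± 0.27 (SE, adjusted p = 0.000629 in edgeR). No source used here says whether the counting used strand, so reads of these 2 loci cannot be told apart.

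The locus with the span of Sema3c, a secreted guidance factor of the semaphorin family, lies 51423 nt past the 3′ end. It had 23, 16, 15 and 34 counts in untreated libraries and 20, 25, 22 and 26 with IL-4, with a log2 change of 0.09 ± 0.28 (SE, adjusted p = 0.810 in edgeR). The loci with the spans of Gnai1 and Speer4f1 had 2 counts at most in a library and were not tested.

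Loci whose pattern was most like that of Cd36 were named by 2 measures. By Pearson correlation of log2 CPM over the 8 libraries, the nearest 5 had r from 0.996 to 0.999. All 8 points share the treatment contrast, and 884 loci, or 6.42% of those tested, had r of at least 0.95. A locus that follows Cd36 this closely rises with it by the way it was picked. The adjusted p of these 5 therefore describe them and are no separate support for a rise. The 5 include a chromosome 3 locus at chr3:50168858-50432646, which rose from 25.0 ± 8.09 to 139 ± 15.2 CPM (edgeR, adjusted p = 1.458e-06). A locus at chr6:129411609-129422918 rose from 646 ± 160 to 1682 ± 204 CPM (edgeR, adjusted p = 2.18e-05). A further pair of loci had the span of a named gene, which is the only ground for the name. At chr12:120396421-120477270, where a reference transcript has the 75474-nt span of Itgb8, an integrin subunit, the level rose from 1.94 ± 0.821 to 14.8 ± 3.44 CPM (edgeR, adjusted p = 3.169e-06). The locus at chr2:109757804-109854414 has the 96611-nt span of Lgr4, a receptor for R-spondins, and rose from 1.62 ± 0.522 to 5.20 ± 0.678 CPM (edgeR, adjusted p = 2.801e-05). The fifth, at chr3:75680110-75760853, rose from 17.4 ± 2.12 to 26.0 ± 0.822 CPM (edgeR, adjusted p = 4.234e-05).

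By level and fold change together, the nearest locus was chr19:20447924-20465162, with a reference transcript of the 17238-nt span of Anxa1, which encodes the phospholipid-binding protein annexin A1. It rose from 3615 ± 612 to 5282 ± 146 CPM. With edgeR's scaling its log2 change was 0.66 ± 0.11 (SE, adjusted p = 0.000624 in edgeR). The next was chr7:135206033-135349017, which joins 3 separate groups of reference transcripts, 1 of them with the span of the integrin gene Itgam, and had a log2 change of 1.44 ± 0.11 (SE, adjusted p = 1.386e-06 in edgeR). The other 3 had log2 fold changes from 0.38 to 0.72. All 5 were below the 1.90 of Cd36. They were picked on level and fold change, so their adjusted p are a description too.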

How the data were processed

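Total RNA was depleted of ribosomal RNA, per the labels' protocols. The submitters' processing notes name build mm9 with TopHat2 2.0.9, HTSeq, Cufflinks 2.1.1 and CASAVA 1.8.2. No source used here gives their settings or any use of strand. Deposited by the authors were integer counts per locus, FPKM per transcript and a merged annotation. Total counts were 23071022 to 27783417 per library; the depth behind a single FPKM value is unknown.

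The count test was edgeR 4.0.16 under R 4.3.3 (TMM factors, default filter, 13761 loci kept, quasi-likelihood test, two-sided, Benjamini-Hochberg, threshold 0.05). FPKM and their sums per start were tested with limma 3.58.1 with a variance trend on log2(FPKM + 0.1), for items at 1 FPKM or more in at least 4 libraries. The pseudocount makes folds of low isoforms too small. Start use was the log2 ratio of a start to the rest of its locus (both + 0.1) at loci with at least 2 kept groups. Shares were compared by exact permutation tests. The edgeR test on loci and the limma tests on start-site groups and start use were run on simulated data. There the limma tests made somewhat more false calls than the threshold allows. The permutation tests were not run on simulated data. DESeq2 1.42.0 and other filters, scalings, pseudocounts and left-out libraries were alternatives.

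The labels number the replicates. Deviations from the group means correlated for equal numbers at 0.390, 0.149, 0.228 and 0.179 in replicates 1 to 4. Most unequal numbers correlated negatively, down to -0.268 (untreated 1 with IL-4 2). The highest of them were 0.261 (untreated 3 with IL-4 2), 0.133 (2 with 3) and 0.123 (1 with 4). Counts on chromosome Y were high in both replicate 4 libraries, 5808 and 5525. Equal numbers thus leaned towards each other, but the pairing is not clear-cut. The main tests left it out, and it entered an alternative fit as a block.

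The member and the lists were chosen with earlier results of these data known. Named were all isoforms and starts of Cd36, the 5 loci with the highest correlation and the 5 nearest by level and change. The files do not pair loci with symbols; names are given only for spans equal (Sema3c 1 nt off) to a RefSeq gene's on the same chromosome, of at least 10000 nt for the loci away from Cd36. Lists of scavenger receptors, nuclear receptors, fatty acid and cholesterol genes and of cell type markers were therefore not run, and the macrophage label was not checked against markers.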

Additional observations from a re-analysis of the deposited data

Results flagged for a closer look

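In 52 groups of 4 libraries, covering the levels and shares reported for Cd36 and its neighbours, 2 held a library far from the other 3, with a gap above Dixon's critical value at the 95% level. Chance gives about 1 in 20 such groups, and many of the 52 share values. Both were shares of assembled isoforms in the summed FPKM of Cd36, and both were replicate 4. Untreated replicate 4 had 7.99%, against 5.86% to 6.21% in the other untreated libraries. IL-4 replicate 4 had 9.39%, against 10.4% to 10.5% in the other IL-4 libraries. The replicate 4 libraries are also those with counts on chromosome Y, 5808 and 5525, and the part of this in the shares was not tested. The share was higher with IL-4 in that pair too.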

How the results depend on the processing

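Over 17 results and 238 alternatives, 232 kept direction and side of the threshold, 6 kept the direction alone and 0 reversed. The splice-form shares, the neighbouring loci and the loci most like Cd36 were not among these results and were given no alternatives. The log2 fold change of the locus was 1.73 to 2.01 over its 16 alternatives, which include RLE and upper-quartile factors, other filters, DESeq2 (1.92) and edgeR's test against 1.5-fold. With a replicate block it was 1.94 (edgeR, adjusted p = 5.769e-08), and the block changed no call made with edgeR or limma; the ratio of the second upstream start came nearest the threshold (limma, adjusted p = 0.0413). The 6 exceptions are the shares of the starts in designs too small to pass. Within the 4 replicate pairs (the replicate block) the differences of -19.5, 15.8 and 3.69 percentage points for the proximal, upstream and second upstream start had p = 0.125, the smallest an exact sign-flip test over 4 pairs allows. Without both replicate 4 libraries they were -21.5, 17.1 and 4.46 points with p = 0.1, the smallest an exact permutation of 3 against 3 allows. Leaving out 1 library at a time gave -20.8 to -18.7, 15.0 to 17.0 and 3.47 to 4.19 points. The fold change of TCONS_00061596 depended on the pseudocount, at 1.51 on the log2 scale with 0.1 and 0.73 with 1.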
